A study of Arabidopsis thaliana with 36 samples.

Results

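Aquaporins are the membrane channels through which water and small uncharged solutes cross plant membranes. In Arabidopsis they fall into plasma membrane intrinsic proteins (PIP), tonoplast intrinsic proteins (TIP) of the vacuole membrane, nodulin 26-like intrinsic proteins (NIP), and small basic intrinsic proteins (SIP) of the endoplasmic reticulum. The genes described here are the 22 of the 32833 genes in the count table whose description contains the word aquaporin. They are 5 PIP genes, 8 TIP genes, 5 NIP genes, 1 SIP gene and 3 genes whose description and name give no subfamily. A further 16 genes carry a PIP, TIP, NIP or SIP name but another description, among them every PIP1 gene. They were not chosen by that wording and are given only as the rest of the family.

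RNA-seq libraries came from roots and, separately, shoots of 11-day-old seedlings grown in liquid medium, several seedlings per replicate. Shoots and roots were parted from the same seedlings. The tpst mutant lacks tyrosylprotein sulfotransferase, the enzyme that sulfates the peptide phytosulfokine (PSK) and other peptide signals. In each tissue there were 6 groups of 3 replicates: tpst with PSK at 10 nM (exposures of 30 min, of 2 h, of 5 h and of 11 days), untreated tpst, and untreated wild type Col-0. For the short exposures the medium was exchanged for medium with PSK, whereas plants of the 11-day group germinated with PSK and untreated tpst and Col-0 plants kept their medium, so the peptide and the exchange cannot be told apart at 30 min, 2 h and 5 h. The hour of collection is not given in the sources used here, so exposure to PSK and the time of day at collection cannot be told apart either. Each PSK group was compared with the same 3 untreated tpst libraries of its tissue, so the comparisons are not independent of each other. All groups with PSK carry the tpst mutation, and its other sulfated peptides were not restored. The 36 libraries held 21559655 to 36921510 counts. The summed level of 20 photosynthesis genes was 314 to 1044 CPM, the usual scaling of read counts to library size, in 17 root libraries and 2416 CPM in replicate 3 of untreated tpst roots, against 39048 to 67828 CPM in shoots. That of 11 root markers was 5077 to 8915 CPM in roots and 695 to 1253 CPM in shoots. Fewer cells of a type and less RNA per cell cannot be told apart in such samples.

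Water moves through an aquaporin pore between a pair of short loops that meet in the middle of the membrane, and each loop usually carries the residues Asn-Pro-Ala (NPA). In the TAIR10 genome both loops read NPA in all 13 PIP and TIP members. The exceptions among the members with a subfamily were NIP1-2, NIP6-1 and SIP1-2, each with 1 changed box. The stretches below show the usual boxes of TIP1-1 beside the changed ones, as TAIR10 bases with the 9 bases that encode the box in capitals.
TIP1-1, first box (chr2:15445730-15445762, plus strand): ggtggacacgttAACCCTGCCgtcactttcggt
SIP1-2, first box (chr5:6056174-6056206, minus strand): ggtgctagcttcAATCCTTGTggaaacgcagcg
TIP1-1, second box (chr2:15446163-15446195, plus strand): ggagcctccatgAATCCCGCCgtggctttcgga
NIP1-2, second box (chr4:10367970-10368002, plus strand): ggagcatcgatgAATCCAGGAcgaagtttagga
NIP6-1, second box (chr1:30350790-30350822, minus strand): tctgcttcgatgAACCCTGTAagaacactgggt
The SIP1-2 box reads Asn-Pro-Cys, that of NIP1-2 Asn-Pro-Gly and that of NIP6-1 Asn-Pro-Val. The genes without a subfamily were short, with coding sequences of 375 bases (AT1G52180), 198 bases (AT2G16835) and 420 bases (AT2G29870). AT2G29870 matched NIP2-1 at 97.9% of 419 aligned coding bases, and PIP2-3 matched its neighbour PIP2B, one of the rest of the family, at 94.8% of 858 bases. Reads of such near-identical pairs may be split or shared between them, so their levels are less certain than those of the other members.

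In untreated Col-0 TIP1-2 and TIP1-1, channels of the vacuole membrane, were the most abundant members of both tissues. Levels between genes are given as CPM per kilobase of gene length (CPKM). TIP1-2 had 721, 645 and 688 CPKM in roots and 644, 583 and 547 CPKM in shoots. TIP1-1 averaged 483 ± 32.5 CPKM in roots and 334 ± 25.1 CPKM in shoots (SD, n = 3). In roots the order went on with PIP2-7, a plasma membrane channel (226, 222 and 226 CPKM), TIP2-1 (207 ± 4.33 CPKM) and PIP2-3 (68.5 ± 3.5 CPKM). PIP2-3 and the next, TIP4-1 at 65.7 ± 6.67 CPKM, overlapped, whereas each earlier neighbour stood clear of the next. In shoots TIP1-1 overlapped TIP2-1 (311 ± 25.2 CPKM), followed by PIP2-7 (198, 222 and 208 CPKM) and PIP2-6 (142 ± 12.6 CPKM). The leading NIP member was NIP1-2, a carrier of aluminium malate, with 6.27, 4.85 and 5.82 CPKM in roots and 10.3, 7.79 and 8.81 CPKM in shoots. In roots NIP6-1 overlapped it, at 5.3, 3.46 and 3.28 CPKM.

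In all, 7 members were too low to test in either tissue. They were TIP1-3, TIP3-1, TIP5-1, NIP4-1 and the 3 genes without a subfamily, and the highest value of any of them in any library was 0.583 CPM, that of TIP3-1 in a shoot library. TIP3-1 is the tonoplast channel of seeds, and TIP1-3, TIP5-1 and NIP4-1 are known from pollen. NIP4-1 had 0 counts in every library. The other 15 members passed the filter in both tissues, 5 PIP, 5 TIP, 4 NIP and 1 SIP gene, and the counts below refer to these 15.

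**Figure D1:**
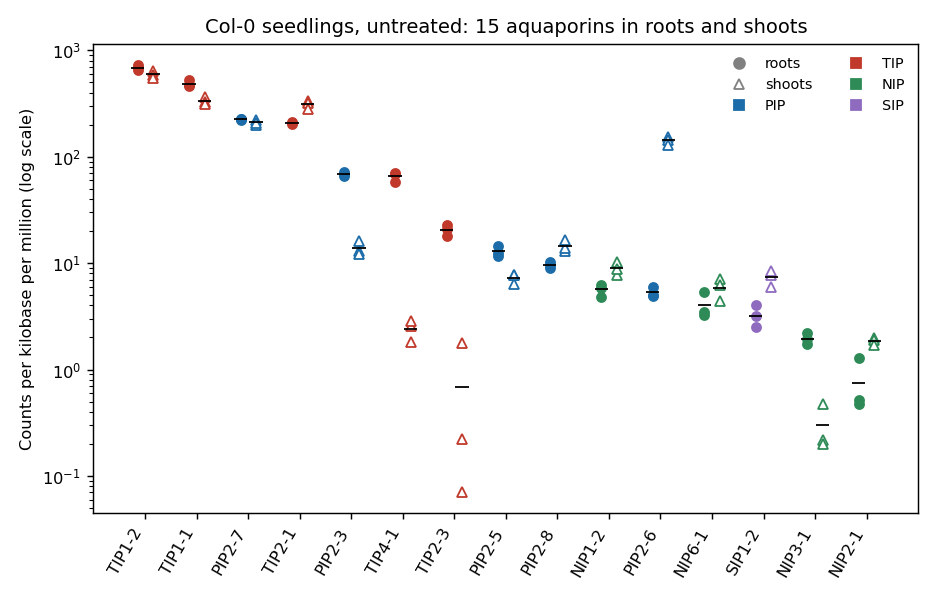
Levels of the 15 tested members in untreated Col-0, in CPKM on a log axis, with filled circles for root libraries, open triangles for shoot libraries, a black line for the mean of 3 libraries and colours for the subfamilies. TIP1-2 and TIP1-1 lie highest in roots, PIP2-6 stands at 5.3 ± 0.558 in roots against 142 ± 12.6 in shoots, and TIP4-1 and TIP2-3 are higher in roots.

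Between the tissues of Col-0, 4 members were higher in roots and 2 were lower. Calls required a 2-fold difference or more together with adjusted p < 0.05 in edgeR's quasi-likelihood test. Of all 22303 genes tested, 21.5% were higher in roots and 19.8% lower, so both shares are near those of all genes. TIP2-3, a vacuolar channel for water and ammonia, had 20.7, 17.8 and 23.0 CPKM in roots and 0.222, 0.0708 and 1.76 CPKM in shoots (log2 4.99 ± 0.47 (SE), adjusted p = 1.96e-10). TIP4-1 had 70.2, 68.8 and 58.0 CPKM in roots and 2.57, 1.8 and 2.83 CPKM in shoots (log2 4.79 ± 0.26 (SE), adjusted p = 1.03e-15). NIP3-1 (log2 2.73) and PIP2-3 (log2 2.32) were the others higher in roots, and PIP2-3 had 65.2, 68.1 and 72.2 CPKM in roots and 13.1, 12.2 and 16.0 CPKM in shoots. The reverse held for PIP2-6, with 4.93, 5.03 and 5.94 CPKM in roots and 154, 143 and 129 CPKM in shoots (log2 -4.74 ± 0.25 (SE), adjusted p = 6.81e-16), and for SIP1-2, with 4, 2.5 and 3.15 CPKM in roots and 7.74, 6.01 and 8.42 CPKM in shoots (log2 -1.19). No root library overlapped a shoot library in any of these 6.

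The first question of the study is what the peptide changed at each time. In roots the aquaporin calls were upward and late. PIP2-3 and TIP2-3 rose after 5 h and again stood higher in plants grown with PSK for 11 days, and no member fell at any time. No member was called at 30 min or 2 h by edgeR. At 30 min 5 of the 15 and 14.7% of all genes passed an unadjusted p of 0.05, and at 2 h 4 of the 15 and 21.9% of all genes did. DESeq2 gave 0 calls at 30 min and 1 at 2 h, which was NIP2-1, and its shares of all genes are not given here. By edgeR, 0.0796% of all genes tested in roots were higher and 0.375% lower at 30 min, and 0.379% and 0.918% at 2 h. At 5 h the shares were 1.35% and 1.01%, and at 11 days 1.1% and 0.81%.

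PIP2-3, also known as RD28 and first described as a gene raised by desiccation, had 284, 296 and 225 CPM after 5 h and 301, 258 and 293 CPM after 11 days, against 110.4, 101 and 103 CPM in untreated tpst roots. Every treated library at these times was above every untreated one. The change was log2 1.36 ± 0.11 (SE), adjusted p = 2.68e-06 at 5 h and log2 1.44 ± 0.11 (SE), adjusted p = 1.32e-06 at 11 days. At 30 min and 2 h it stood at 136, 156 and 115 CPM and 137, 138 and 149 CPM. The 2 h value differed from untreated roots by less than 2-fold (log2 0.43 ± 0.11 (SE), adjusted p = 0.0338). Its near-copy PIP2B had 1013, 958 and 714 CPM at 5 h and 549, 493 and 477 CPM in untreated tpst roots (log2 0.82 ± 0.11 (SE), adjusted p = 0.000227).

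TIP2-3 had 59.6, 45.6 and 53.5 CPM after 5 h and 66.6, 73.3 and 43.7 CPM after 11 days, against 14.7, 16.7 and 12.8 CPM in untreated tpst roots. The rise was log2 1.85 ± 0.19 (SE), adjusted p = 3.85e-05 at 5 h and log2 2.06 ± 0.19 (SE), adjusted p = 1.46e-05 at 11 days, with no overlap at either time. At 2 h the libraries were at 22.3, 19.1 and 16.2 CPM, and at 30 min at 13.8, 18.3 and 13.9 CPM. Between 5 h and 30 min, both in exchanged medium, TIP2-3 differed by log2 1.79 ± 0.19 (SE), adjusted p = 0.000116. It was the 1 member called there, where 0.707% of all genes were higher and 0.262% lower. PIP2-3 fell short of the 2-fold minimum in that comparison (log2 0.98, adjusted p = 0.000116).

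A further 3 members were higher in roots at less than 2-fold. TIP1-1 had 924, 872 and 800.5 CPM at 5 h and 976, 955 and 838 CPM at 11 days, against 555, 519 and 515 CPM in untreated tpst roots. Its difference was log2 0.71 ± 0.076 (SE), adjusted p = 3.95e-05 at 5 h and log2 0.80 ± 0.076 (SE), adjusted p = 1.41e-05 at 11 days, and it passed the adjusted p at 30 min (log2 0.34) and 2 h (log2 0.30) too. No untreated library of TIP1-1 reached a treated one at any time. TIP1-2 differed by log2 0.25 and 0.35 at 5 h and 11 days, and PIP2-7 by log2 0.49 and 0.52. By the adjusted p at any fold, 5 members were higher and 0 lower at each of these times. Among all genes the shares were 9.28% higher and 9.76% lower at 5 h, and 7.31% and 8.65% at 11 days. The median log2 change of the 15 members was 0.10 at 5 h and 0.10 at 11 days, against -0.0028 and -0.0087 over all genes.

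**Figure D2:**
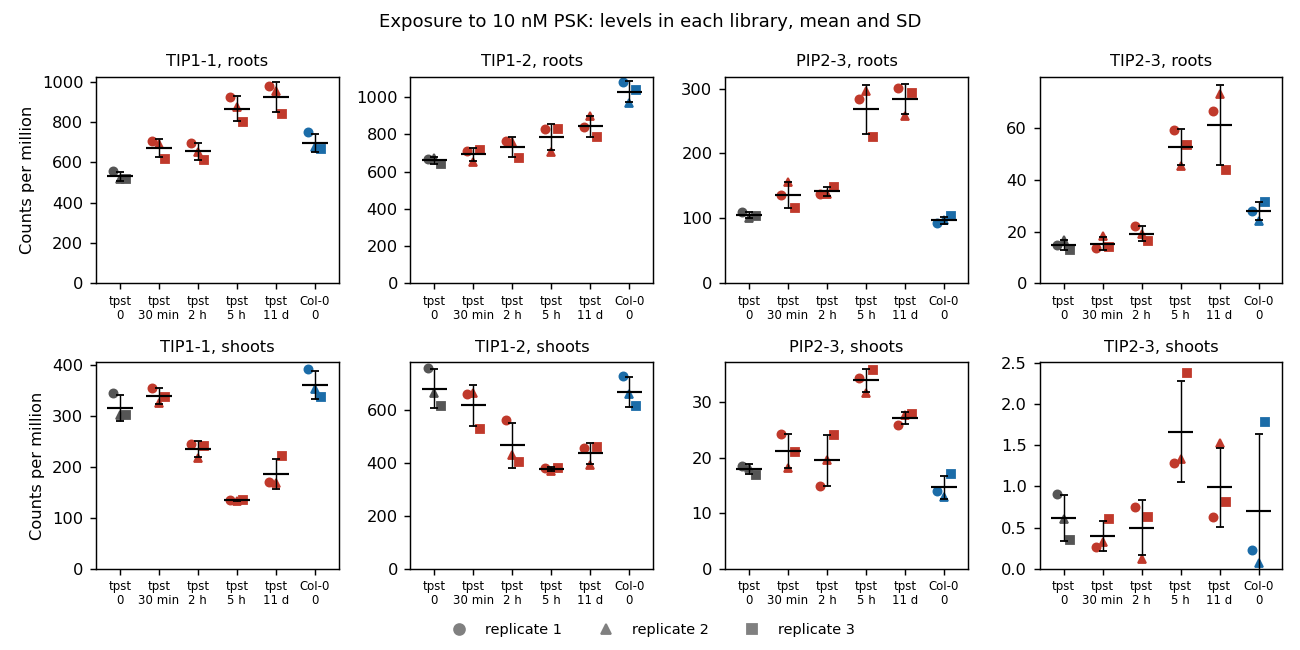
TIP1-1, TIP1-2, PIP2-3 and TIP2-3 in every root library (top) and shoot library (bottom), in CPM, by time of exposure to PSK in tpst and in untreated Col-0, with the mean and SD of 3 replicates. In roots all 4 stand above untreated tpst at 5 h and 11 days, and in shoots TIP1-1 and TIP1-2 stand below it from 2 h on.

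In shoots members moved both ways. TIP1-1, one of the most abundant, fell at 5 h, and NIP2-1 rose at every time. At 5 h 1 member rose and 2 fell, and at 11 days again 1 rose and 2 fell, against 7.7% higher and 9.22% lower of all genes at 5 h and 6.96% and 7.69% at 11 days. At 2 h 1 rose and 1 fell (1.9% and 2.22% of all genes), and at 30 min 1 rose (0.36% higher and 0.25% lower). By the adjusted p at any fold, 5 members were higher and 5 lower at 5 h, where 27.2% and 28.2% of all genes were, and 4 were higher and 5 lower at 11 days, where 25.3% and 25.2% were.

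TIP1-1 had 135, 134 and 136 CPM in shoots after 5 h of PSK, against 347, 302 and 303 CPM in untreated tpst shoots. The fall was log2 -1.23 ± 0.095 (SE), adjusted p = 6.59e-09, and the 3 treated libraries lay close together and far below the untreated ones. At 2 h it had 246, 217 and 242 CPM (log2 -0.43 ± 0.093 (SE), adjusted p = 0.00216) and at 11 days 170.1, 168 and 221 CPM (log2 -0.77 ± 0.094 (SE), adjusted p = 2.3e-06), differences of less than 2-fold. At 30 min it stood at 356, 325 and 338 CPM, overlapping untreated shoots (log2 0.10, adjusted p = 0.645). Between 5 h and 30 min it fell by 1.33 ± 0.095 (SE) on the log2 scale, adjusted p = 7.49e-09. In that comparison 5.22% of all genes were higher and 5.31% lower.

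TIP1-2 followed the same course below the 2-fold minimum, with 379.9, 367 and 381 CPM at 5 h and 455, 390.1 and 459.8 CPM at 11 days, against 759, 662 and 615 CPM in untreated tpst shoots (log2 -0.85, adjusted p = 1.16e-05, and log2 -0.64, adjusted p = 0.000248). NIP1-2 (log2 -0.81 at 5 h) and PIP2-8 (log2 -0.85 at 5 h) were also lower at less than 2-fold. PIP2-3, PIP2-5 and PIP2-7 were higher at 5 h by log2 0.92, 0.49 and 0.39 and at 11 days by log2 0.60, 0.67 and 0.31, all with an adjusted p under 0.05. Of the 3, PIP2-3 had 34.3, 31.7 and 35.8 CPM at 5 h and 18.6, 18.2 and 16.9 CPM in untreated tpst shoots, with no overlap.

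NIP6-1, a boric acid channel of shoots, fell at 5 h to 3.37, 4.5 and 8.09 CPM, against 10.2, 11.2 and 11.3 CPM in untreated tpst shoots (log2 -1.02 ± 0.34 (SE), adjusted p = 0.0172). Single libraries decided this call: without untreated replicate 3, or without replicate 1 or 2 of the 5 h group, it was log2 -0.999 to -0.79, under the 2-fold minimum. The boron exporter BOR2 was also lower, by log2 -1.15 at 5 h and -1.36 at 11 days, and BOR1 (log2 -0.13) and BOR4 (log2 0.088) were not called at 5 h. At low levels, TIP4-1 fell at 11 days, with 1.37, 1.31 and 0.987 CPM against 2.49, 3.29 and 2.35 CPM in untreated tpst shoots (log2 -1.14 ± 0.34 (SE), adjusted p = 0.00893). Its change was log2 -0.97 without untreated replicate 2, just under the minimum. NIP3-1, known for arsenite transport, was called at 2 h (log2 -2.56) and 11 days (log2 -1.44) at no more than 0.643 CPM in any tpst shoot library. Its 11-day call was lost without any 1 of the untreated libraries or of PSK replicates 1 and 2 (log2 -1.48 to -1.22), and with no filter on low counts (log2 -1.43).

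TIP2-3 was above 2 CPM in 1 shoot library only and was not called against untreated tpst shoots in the fit of all shoot libraries. At 5 h it gave log2 1.45, adjusted p = 0.108 there. A fit of the 5 h and untreated libraries alone called it (log2 1.45, adjusted p = 0.0208). The fit of all shoot libraries called it between 5 h and 30 min (log2 2.02, adjusted p = 0.0402). That call was lost without any 1 of the 6 libraries of the 5 h and 30 min groups (log2 1.67 to 2.46). It was also lost with no filter on low counts (log2 2.03).

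By subfamily, the calls were few. In roots at 5 h and at 11 days, 1 of 5 PIP and 1 of 5 TIP members rose and 0 of 4 NIP members were called (1.35% and 1.1% of all genes rose), with medians at 5 h of log2 0.19 for PIP, 0.25 for TIP and -0.078 for NIP. In shoots at 5 h the medians were log2 0.39 for PIP, -0.18 for TIP and -0.87 for NIP. The NIP members went both ways there, with NIP6-1 at log2 -1.02 and NIP2-1 at log2 3.38. NIP3-1, 1 of the 4, had no more than 0.643 CPM in any shoot library. There, 0 of 5 PIP members were called, 1 of 5 TIP members fell, and 1 of 4 NIP members rose and 1 fell (7.7% of all genes rose and 9.22% fell). No test compared the subfamilies. SIP1-2, the single SIP member, gave log2 -0.21 in roots (adjusted p = 0.568) and 0.49 in shoots (adjusted p = 0.0185) at 5 h, less than 2-fold in both. TIP2-1, among the 4 most abundant members of both tissues, gave log2 -0.20 in roots (adjusted p = 0.496) and -0.18 in shoots (adjusted p = 0.126) at 5 h.

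**Figure D3:**
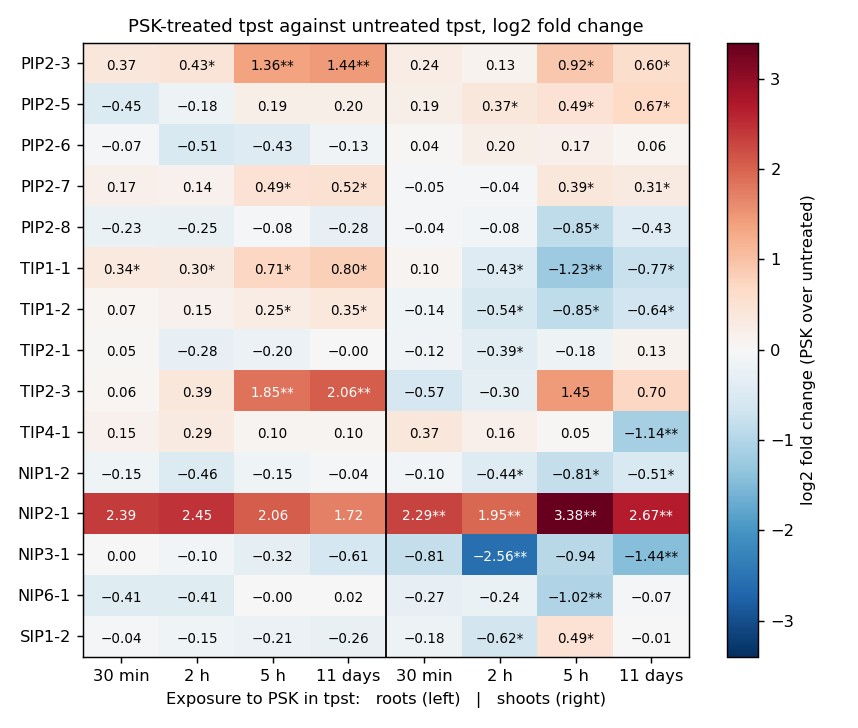
Log2 fold changes of the 15 tested members in PSK-treated tpst over untreated tpst, by time of exposure, with roots on the left and shoots on the right. A pair of stars marks a called change, 1 star an adjusted p under 0.05 at a lower fold, and the TIP1-1 and TIP1-2 rows are red in roots and blue in shoots at 5 h and 11 days.

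Whether roots and shoots differed in their response was tested as the root change minus the shoot change, in a fit of all 36 libraries. TIP1-1 differed at 5 h (log2 1.92 ± 0.12 (SE), adjusted p = 2.57e-11) and at 11 days (log2 1.55 ± 0.12 (SE), adjusted p = 2.26e-09). TIP1-2 differed at 5 h (log2 1.08 ± 0.15 (SE), adjusted p = 4.49e-06) and, at just under 2-fold, at 11 days (log2 0.98 ± 0.15 (SE), adjusted p = 2.3e-05). For the 5 h value of TIP1-2 the difference was 0.99 without replicate 1 of untreated tpst shoots, also just under the minimum. TIP4-1 differed at 11 days (log2 1.21 ± 0.38 (SE), adjusted p = 0.0237), a call lost without replicate 2 of untreated tpst shoots or replicate 3 of either 11-day group (log2 1.05 to 1.09). NIP3-1 differed at 2 h (log2 2.46 ± 0.63 (SE), adjusted p = 0.0197), lost without replicate 1 or 2 of the 2 h shoots (log2 2.07 to 2.38). None of these calls was lost with each pair of a shoot and a root library of 1 condition and replicate number as a block. That block takes equal numbers to mark the same seedlings, which the labels do not say. Thus 2 members were called at 5 h and at 11 days, 1 at 2 h and 0 at 30 min. Of all genes, 7.43% were called at 5 h, 6.42% at 11 days, 1.18% at 2 h and 0.00448% at 30 min. At 30 min the unadjusted p was under 0.05 for 1 of the 15 and 8.32% of all genes, and the number called by DESeq2 was 0. PIP2-3 rose in roots and was higher in shoots, and its difference at 11 days stayed under 2-fold (log2 0.82 ± 0.18 (SE), adjusted p = 0.00188).

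Genes of the circadian clock that peak around dawn were also higher in treated plants, from 2 h on. At 2 h, 3 of 6 were higher in roots (median log2 0.83), where no member was called, and 3 of 6 in shoots (median log2 1.13). At 30 min 0 of 6 were called in either tissue. In roots 5 of 6 such genes were higher at 5 h and 6 of 6 at 11 days, with medians of log2 2.54 and 2.65. In shoots 5 of 6 were higher at 5 h and 5 of 6 at 11 days, with medians of log2 2.33 and 2.48. In untreated tpst against Col-0, 3 of 6 were higher in shoots and 0 of 6 in roots. The test of the root change minus the shoot change called 0 of the 6 dawn genes at every time of exposure. Of 6 genes that peak at dusk, 0 were called in roots at any time of exposure. In shoots 1 (2 h), 2 (5 h) and 1 (11 days) were lower. Their part in the aquaporin values was not tested. The proton pumps that energise the plasma membrane and the vacuole membrane (AHA1, AHA2, AVP1 and VHA-A) gave 0 of 4 called in either tissue at any time. The largest difference was that of AVP1 in shoots at 5 h, log2 -0.57, whose adjusted p was 6.47e-06 at less than 2-fold. Among 11 proteins known to regulate or bind aquaporins, OST1, a kinase of abscisic acid signalling, rose at 2 h, 5 h and 11 days in roots (log2 1.24, 1.43 and 1.45) and in shoots (log2 1.25, 2.50 and 1.88). TSPO, which binds a plasma membrane aquaporin and sends it to degradation, rose at 5 h and 11 days in roots (log2 2.77 and 2.75) and in shoots (log2 3.16 and 1.81). The ubiquitin ligase RMA1 fell in shoots at 11 days (log2 -1.45), and the others were not called against untreated tpst. Of the water deficit and abscisic acid markers, 1 of 7 were higher in roots at 5 h and 2 of 7 in shoots, with 1 lower there.

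NIP2-1, a lactic acid channel of roots known to be raised when oxygen is short, was the 1 member called in shoots at every time. It had 0.516, 1.49 and 2.28 CPM in untreated tpst shoots. With PSK it had 9.92, 7.44 and 4.23 CPM at 30 min, 5.13, 6.7 and 5.1 CPM at 2 h, 24.9, 13.2 and 7.75 CPM at 5 h and 16.2, 7.59 and 4.08 CPM at 11 days. All 12 treated libraries were above all 3 untreated ones, and the treated replicates of 1 time were far apart, except at 2 h. The rise was log2 2.29 ± 0.59 (SE), adjusted p = 0.0471 at 30 min, log2 1.95 ± 0.60 (SE), adjusted p = 0.0274 at 2 h, log2 3.38 ± 0.59 (SE), adjusted p = 0.000229 at 5 h and log2 2.67 ± 0.59 (SE), adjusted p = 0.00172 at 11 days. The 30 min call was lost without any 1 of the 3 PSK replicates or of untreated replicates 1 and 2 (log2 1.91 to 2.56), with no filter on low counts (log2 2.29) and in a fit of those 6 libraries alone (log2 2.30). The 2 h call was lost without untreated replicate 1 or 2 or PSK replicate 2 (log2 1.57 to 1.96). The calls at 5 h and 11 days were kept without any 1 library. AT2G29870, whose sequence nearly matches NIP2-1, reached no more than 0.159 CPM in any library.

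In roots the call on NIP2-1 depended on the model, and edgeR without a block called it at no time. It had 8.46, 4.96 and 4.04 CPM in untreated tpst roots, 48.5, 31.5 and 11.5 CPM at 30 min, 57.5, 22.1 and 15.6 CPM at 2 h, 44.7, 24.0 and 3.82 CPM at 5 h and 40.6, 7.97 and 8.94 CPM at 11 days. Replicate 1 was the highest of its group in every PSK group, and treated and untreated libraries overlapped at 5 h and 11 days. The differences were log2 2.39 ± 0.89, 2.45 ± 0.89, 2.06 ± 0.89 and 1.72 ± 0.88 (SE), with adjusted p between 0.124 and 0.24. DESeq2 called the 2 h rise (log2 2.44, adjusted p = 0.0473). With the replicate number as a block, edgeR called all 4 times, with log2 2.26, 2.30, 1.75 and 1.46 and adjusted p = 0.0247, 0.0135, 0.0188 and 0.0443. The labels do not say that a number marks a shared batch. No difference between the root and shoot response of NIP2-1 was detected at any time (largest log2 -1.35 ± 1.12, adjusted p = 0.423).

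Markers of low oxygen were also higher with PSK. In shoots 5 of 6 hypoxia markers rose at each time, all but the lactate dehydrogenase LDH1, with medians of log2 1.74, 2.27, 3.31 and 2.78 from 30 min to 11 days. In roots 2, 4, 4 and 3 of the 6 rose, with medians of log2 1.17, 1.52, 1.24 and 1.15. ADH1, the alcohol dehydrogenase of fermentation, had 4517, 4268 and 3831 CPM in shoots at 5 h, against 165, 171 and 242 CPM in untreated tpst shoots (log2 4.45 ± 0.17 (SE), adjusted p = 2.82e-11). In roots at 11 days, where replicate 1 of NIP2-1 stood far above the others, the haemoglobin gene HB1 had 761, 363 and 381 CPM, with its highest value in the same library. At 5 h HB1 had 651, 678 and 351 CPM and ADH1 4593, 5728 and 3357 CPM, both highest in replicate 2, as were the markers SUS4 and SUS1. NIP2-1 was highest in replicate 1 there, and so were PDC1 (1373, 1172 and 787 CPM) and LDH1 (88.1, 62.2 and 57.6 CPM). All these genes were lowest in replicate 3 at 5 h. At 30 min every marker was highest in replicate 1, as NIP2-1 was, and at 2 h every one but ADH1 was. Between untreated tpst and Col-0 roots, 5 of 6 hypoxia markers were higher, and NIP2-1 differed by log2 2.20 ± 1.08 (SE), adjusted p = 0.167. That difference was called by DESeq2 (adjusted p = 0.0412), in the fit of those 6 libraries (adjusted p = 0.00828) and with the block (adjusted p = 0.0119). What these markers have to do with NIP2-1 was not tested.

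**Figure D4:**
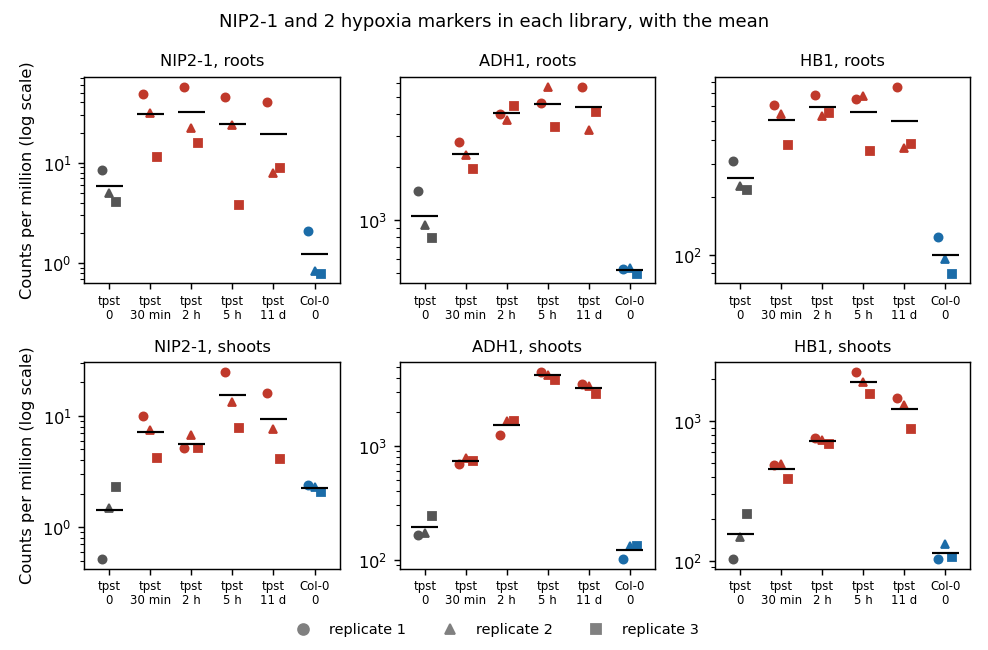
NIP2-1 and the hypoxia markers ADH1 and HB1 in every root library (top) and shoot library (bottom), in CPM on log axes, by time of exposure to PSK in tpst and in untreated Col-0, with a line at the mean and a symbol for each replicate number. In shoots all treated libraries of the 3 genes lie above untreated tpst, and in roots the NIP2-1 replicates of 1 time are spread, with replicate 1 highest in each PSK group.

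The bases before the annotated starts of 4 called genes, PIP2-3 and TIP2-3 in roots and TIP1-1 and NIP2-1 in shoots, are shown to let their regulatory sequence be compared. Each line gives the 250 bases before the gene start in TAIR10, in the direction of the gene. Capitals mark matches, on either strand, to the G-box (CACGTG), the evening element (AAAATATCT) and the CCA1-binding site (AAAAATCT) of clock control, or the W-box of WRKY factors (TTGACC or TTGACT).
PIP2-3 (chr2:15617385-15617634, plus strand): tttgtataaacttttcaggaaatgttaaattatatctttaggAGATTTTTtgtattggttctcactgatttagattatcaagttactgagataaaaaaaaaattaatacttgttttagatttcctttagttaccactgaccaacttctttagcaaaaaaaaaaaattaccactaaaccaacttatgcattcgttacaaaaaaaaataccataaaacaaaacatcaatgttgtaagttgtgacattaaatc
TIP2-3 (chr5:19249623-19249872, minus strand): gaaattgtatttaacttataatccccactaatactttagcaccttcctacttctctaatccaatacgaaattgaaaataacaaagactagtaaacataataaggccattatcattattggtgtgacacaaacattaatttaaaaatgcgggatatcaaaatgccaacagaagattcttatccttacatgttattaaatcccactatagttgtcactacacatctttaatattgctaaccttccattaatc
TIP1-1 (chr2:15445044-15445293, plus strand): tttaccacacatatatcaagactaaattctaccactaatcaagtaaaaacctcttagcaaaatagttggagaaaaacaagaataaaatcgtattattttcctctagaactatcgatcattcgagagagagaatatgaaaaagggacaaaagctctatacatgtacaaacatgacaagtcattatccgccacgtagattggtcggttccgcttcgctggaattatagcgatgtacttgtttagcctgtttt
NIP2-1 (chr2:14515989-14516238, minus strand): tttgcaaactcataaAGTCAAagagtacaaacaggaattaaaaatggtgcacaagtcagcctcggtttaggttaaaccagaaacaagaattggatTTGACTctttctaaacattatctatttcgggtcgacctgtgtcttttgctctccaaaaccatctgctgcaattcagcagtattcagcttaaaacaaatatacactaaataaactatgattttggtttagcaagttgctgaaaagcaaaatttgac
PIP2-3 holds 1 CCA1-binding site, TIP2-3 and TIP1-1 no match, and NIP2-1 holds 2 W-boxes, 1 on each strand. Over all 27419 protein-coding genes, 6.69% of such windows hold a CCA1-binding site, 28.4% a W-box, 6.48% a G-box and 2.36% an evening element. Among the 22 members 9 hold a W-box, 2 a CCA1-binding site and 0 a G-box or an evening element. These matches describe letters and were not tested as binding sites.

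Without PSK, the tpst mutation went with lower levels of TIP1-2, TIP1-1 and PIP2-7 in roots, all at less than 2-fold, and with calls for a pair of scarcer members. In untreated tpst roots against Col-0 roots 1 member was higher and 1 lower, where 2.95% of all genes were higher and 3.49% lower. PIP2-6 had 3.06, 4.72 and 8.67 CPM in tpst roots and 12.3, 12.6 and 14.9 CPM in Col-0 roots (log2 -1.27 ± 0.32 (SE), adjusted p = 0.0101). The highest tpst library is replicate 3, the one with the most photosynthesis RNA, and PIP2-6 is a shoot-rich member. What that RNA has to do with the PIP2-6 level was not tested. Without tpst replicate 3 the difference was log2 -1.77, and without tpst replicate 1 it was log2 -0.99, just under the 2-fold minimum. NIP6-1 had 12.9, 16.2 and 14.7 CPM in tpst roots and 7.46, 4.89 and 4.65 CPM in Col-0 roots (log2 1.36 ± 0.34 (SE), adjusted p = 0.0102). That call was lost without Col-0 replicate 3 (log2 1.23).

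Below 2-fold, TIP1-2 had 669, 674 and 639.8 CPM in tpst roots and 1081, 971 and 1039.7 CPM in Col-0 roots (log2 -0.64 ± 0.074 (SE), adjusted p = 2.51e-05). PIP2-7 (log2 -0.69), TIP1-1 (log2 -0.40) and TIP2-3 (log2 -0.93) were also lower, and PIP2-5 (log2 0.93) and NIP1-2 (log2 0.82) were higher, each with an adjusted p under 0.05. In shoots no member was called between the genotypes, where 4.3% of all genes were higher and 1.26% lower. In that comparison 7 of the 15 members and 35.5% of all genes passed an unadjusted p of 0.05, and the number called by DESeq2 was 0. The genotype difference of no member was called by edgeR as different between roots and shoots (6.62% of all genes were). At an unadjusted p under 0.05 there were 7 of 15 and 30.4% of all genes. DESeq2 called 2, PIP2-6 and NIP2-1, and its share of all genes is not given here.

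Plants of tpst grown with PSK for 11 days were also set against Col-0, to see which members ended at the wild type level. In roots 5 members were higher and 1 lower than in Col-0, where 3.62% of all genes were higher and 4.19% lower. PIP2-3 ended at 301, 258 and 293 CPM in PSK-grown tpst roots, against 92.4, 96.9 and 103 CPM in Col-0 roots (log2 1.54 ± 0.11 (SE), adjusted p = 1.53e-07). TIP2-3, with 28.1, 24.3 and 31.4 CPM in Col-0 roots, was higher by log2 1.13, and by 0.98 without PSK replicate 2. PIP2-5, at 55.3, 59.6 and 60.7 CPM against 24.5, 25.8 and 30.3 CPM, was higher by log2 1.12. NIP6-1 had 13.8, 17.9 and 12.7 CPM in PSK-grown tpst roots and 7.46, 4.89 and 4.65 CPM in Col-0 roots (log2 1.38). NIP2-1 was higher by log2 3.91 ± 1.05 (SE), with 2.07, 0.838 and 0.782 CPM in Col-0 roots, a call lost without Col-0 replicate 2 or 3 or PSK replicate 1 (log2 2.74 to 3.71). PIP2-6 was lower, with 3.85, 6.23 and 4.97 CPM against 12.3, 12.6 and 14.9 CPM in Col-0 roots (log2 -1.40). PIP2-7, lower in untreated tpst, had 386, 403 and 331 CPM with PSK and 421, 414 and 424 CPM in Col-0 roots (log2 -0.17, adjusted p = 0.105). TIP1-2 stayed lower than in Col-0 roots at less than 2-fold (log2 -0.29, adjusted p = 0.00846). TIP1-1, lower in untreated tpst roots, had 976, 955 and 838 CPM with PSK and 748, 676 and 668 CPM in Col-0 roots. Its libraries did not overlap, and it was not called.

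In shoots 2 members were higher and 1 lower than in Col-0, against 10.5% and 9.16% of all genes. NIP2-1 was higher, with 16.2, 7.59 and 4.08 CPM in PSK-grown tpst shoots and 2.41, 2.32 and 2.06 CPM in Col-0 shoots (log2 2.04 ± 0.56 (SE), adjusted p = 0.00675). PIP2-5 had 23.7, 25.6 and 26.4 CPM in PSK-grown tpst shoots, against 9.88, 12.2 and 12.1 CPM in Col-0 shoots (log2 1.15 ± 0.12 (SE), adjusted p = 2.36e-07). PIP2-8 was lower, with 7.01, 8.54 and 12.1 CPM against 16.7, 17.9 and 21.3 CPM (log2 -1.02), a call lost without Col-0 replicate 3, without PSK replicate 1 or 2 (log2 -0.95 to -0.83) and with no filter on low counts (log2 -0.996). The most abundant members were not called, but TIP1-1 and TIP1-2 stood below Col-0 in every library. TIP1-1 had 170, 168 and 221 CPM against 393, 353 and 338 CPM in Col-0 shoots, with no overlap. Its means were 186 ± 30.1 and 361 ± 28.3 CPM, and 317 ± 25.5 CPM in untreated tpst shoots (SD). TIP1-2 had 455, 390 and 460 CPM against 729, 659 and 614 CPM, again with no overlap. It averaged 679 ± 73.5 CPM in untreated tpst shoots (SD). PIP2-7 overlapped, at 265, 296 and 301 CPM against 279, 312 and 291 CPM.

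Without the fold minimum, by the adjusted p alone, the members' counts can be set beside those of all genes in the comparisons not yet so given. In shoots they were 1 of 15 at 30 min (3.9% of all genes), 8 at 2 h (26.2%), 5 for tpst against Col-0 (24.5%), 9 for 5 h against 30 min (45.8%) and 8 for 11 days against Col-0 (57.4%). In roots they were 1 at 30 min (1.17%), 2 at 2 h (4.26%), 8 for tpst against Col-0 (22.2%), 5 for 5 h against 30 min (9.4%) and 9 for 11 days against Col-0 (28%). Between the tissues of Col-0 they were 11 (71.2%). For the difference in response the 30 min count was 0 (0.0135%), the 2 h count 3 (4.82%), the 5 h count 4 (23.2%) and the 11-day count 4 (19.9%). For the genotype difference between tissues it was 3 (17.6%).

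Summed over a subfamily, TIP members stood higher in roots and lower in shoots with PSK. The TIP members summed to 1365 ± 80.1 CPKM in roots at 5 h and 1478 ± 106 CPKM at 11 days, against 1037 ± 26.5 CPKM in untreated tpst roots and 1462 ± 71.9 CPKM in Col-0 roots (SD, n = 3). In shoots the same sum was 673 ± 31.1 CPKM at 5 h and 824 ± 58.3 CPKM at 11 days, against 1128 ± 113 CPKM in untreated tpst shoots and 1239.7 ± 96.0 CPKM in Col-0 shoots. The PIP members summed to 429 ± 6.26 CPKM in roots and 405 ± 19.4 CPKM in shoots at 5 h, against 255 ± 12.7 CPKM and 319.6 ± 2.59 CPKM in untreated tpst roots and shoots. NIP members were scarce throughout, with 26.6 ± 1.12 CPKM in untreated tpst roots and 12.4 ± 2.38 CPKM in Col-0 roots. TIP1-1 and TIP1-2 made up 62.1% of the summed level of all members in roots at 5 h and 62.2% in untreated tpst roots. In shoots they made up 41.4% at 5 h and 60.3% in untreated tpst shoots. These sums are descriptions and were not tested.

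**Figure D5:**
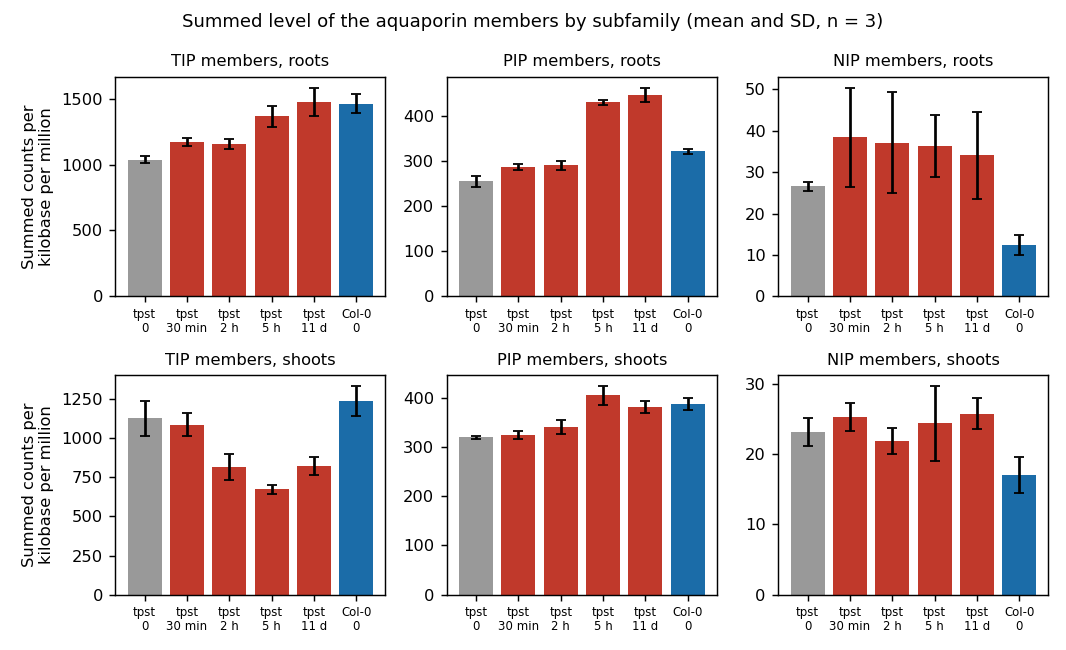
Summed level of the TIP, PIP and NIP members in roots (top) and shoots (bottom), in CPKM, by time of exposure to PSK in tpst and in untreated Col-0, as the mean and SD of 3 libraries on axes that start at 0. The TIP sum in shoots is 673 ± 31.1 at 5 h against 1128 ± 113 in untreated tpst, whereas the root bars at 5 h and 11 days stand above untreated tpst for TIP and PIP.

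The rest of the family held 56.4% of the family's summed level in untreated tpst roots. In roots 1 of its 14 tested genes rose at 5 h and 3 at 11 days, and none fell, where 1.35% and 1.1% of all genes rose. At any fold 8 and 9 were higher, against 9.28% and 7.31% of all genes. PIP1B, a plasma membrane channel of the PIP1 group, had 1079, 1047 and 872 CPM at 5 h, against 413, 465 and 410.4 CPM in untreated tpst roots (log2 1.22 ± 0.07 (SE), adjusted p = 7.83e-08). At 11 days PIP1B, PIP2-1 and the tonoplast channel TIP2-2 rose (log2 1.23, 1.00 and 1.21). In shoots PIP2-1 rose at 5 h (log2 1.04), NIP7-1 fell at 5 h (log2 -1.20) and NIP1-1 fell at 11 days (log2 -1.41). Of all genes 7.7% rose and 9.22% fell in shoots at 5 h, and 6.96% and 7.69% at 11 days. Both NIP genes were low. NIP7-1 had 0.323, 0.626 and 0.537 CPM against 1.16, 0.723 and 1.56 CPM in untreated tpst shoots. NIP1-1 had 0.557, 1.28 and 1.7 CPM against 2.54, 3.05 and 3.67 CPM. Between the genotypes, NIP5-1, the boric acid uptake channel, was higher in tpst shoots, with 28.5, 24.1 and 19.2 CPM against 8.92, 6.64 and 9.85 CPM in Col-0 shoots (adjusted p = 3.62e-06), and PIP2-4 was lower in tpst roots (log2 -1.36 ± 0.14 (SE), adjusted p = 8.21e-06). The wording that chose the members therefore leaves out family genes that changed, and the counts given for members do not describe the family as a whole.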

How the data were processed

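Shoots and roots of tpst and Col-0 seedlings were profiled by poly(A) RNA-seq in 3 biological replicates per group. The authors trimmed reads with fastp, mapped them to TAIR10 with HISAT2 2.0.5 and counted reads per gene with featureCounts 1.5.0-p3 (version numbers as in the submitters' processing notes), and deposited the counts per gene. The authors also deposited FPKM values, fragments scaled to gene length and library size, which were used here only as an alternative for summed levels. Whether counting used strand is not given in the sources used here, so overlapping and antisense genes were not told apart.

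Counts were fitted with edgeR 4.0.16 in R 4.3.3 (TMM scaling, filterByExpr with a minimum count of 10, quasi-likelihood F test with Benjamini-Hochberg adjustment over all genes tested), with 18 libraries per tissue, and with all 36 libraries for differences between tissues. Calls required a 2-fold difference or more together with adjusted p < 0.05. Standard errors were derived as |log2 change| over root F. Shares of all genes are those of this edgeR fit. None is given for DESeq2, a block or the fits that leave libraries out, so member counts there have no such share beside them. CPM values were scaled by TMM within a tissue, and CPKM values by TMM over all 36 libraries and by the gene length in the count table. The fits were tested on simulated data. Replicates differed by more than sampling noise in all 36 pairs, so none was a duplicate. Depth, 21559655 to 36921510 counts per library, limits low members: values under about 1 CPM rest on few reads.

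The members follow from the wording of the gene description. Values of every library are given for members called with PSK or between genotypes and averaging at least 5 CPM, and, in Col-0, for the most abundant member of each subfamily. A few lower ones are named because a call fell on them, chosen after their values were seen, as was the choice of the promoters printed. Members and lists were chosen with earlier results of these data known. Alternatives were RLE scaling, no filter, no fold minimum, DESeq2 1.42.0, the 6 libraries of a comparison, a block, leaving out each library, and deposited FPKM. Within a tissue the block was the replicate number. In the fits of all 36 libraries it was the pair of a shoot and a root library of 1 condition and replicate number. Sequences and gene starts came from RefSeq TAIR10.1, in which all 22 members had the coordinates of the count table.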

Additional observations from a re-analysis of the deposited data

Results flagged for a closer look

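For 4 members the change with PSK differed between roots and shoots by the test of the difference itself (root change minus shoot change on the log2 scale, edgeR quasi-likelihood test over all genes). TIP1-1 differed by 1.92 at 5 h and 1.55 at 11 days, since it was higher in treated roots and lower in treated shoots. TIP1-2 differed in the same sense by 1.08 at 5 h. TIP4-1 differed by 1.21 at 11 days, where its shoot level was under 5 CPM in every library. NIP3-1 differed by 2.46 at 2 h, where it was under 1 CPM in every tpst shoot library.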

How the results depend on the processing

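Of 38 calls on members, 24 held without any 1 library, and 0 were lost with RLE scaling, DESeq2 or the replicate or pair block. With no filter 4 were lost, and 1 in the fit of the comparison's 6 libraries, and 0 changed sign under the alternatives run. Those lost are named with their values in the report. With no filter 0 members were called in shoots at 30 min and 1 between 5 h and 30 min. The fit of 6 libraries also called 0 in shoots at 30 min. It added TIP2-3 in shoots at 5 h and NIP2-1 in roots for tpst against Col-0.

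With no fold minimum, members of 15 passing the adjusted p in shoots, with the share of all genes, numbered 8 at 2 h (26.2%), 10 at 5 h (27.2% higher and 28.2% lower), 9 at 11 days (25.3% higher and 25.2% lower), 5 for tpst against Col-0 (24.5%), 9 for 5 h against 30 min (45.8%), and 8 for 11 days against Col-0 (57.4%). In roots they numbered 1 at 30 min (1.17%), 2 at 2 h (4.26%), 5 at 5 h (9.28% higher and 9.76% lower), 5 at 11 days (7.31% higher and 8.65% lower), 8 for tpst against Col-0 (22.2%), and 5 for 5 h against 30 min (9.4%). Between roots and shoots they numbered 11 in Col-0 (71.2%), and for the difference in response 3 at 2 h (4.82%), 4 at 5 h (23.2%) and 4 at 11 days (19.9%), with 3 for the genotype difference (17.6%). DESeq2 called 1 in roots at 2 h (NIP2-1) and 2 for the genotype difference (PIP2-6 and NIP2-1), and RLE scaling called 1 for that difference (PIP2-6).

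With the replicate block, 1 member was called in roots at 30 min and 1 in roots at 2 h. With the pair block, 1 was called for the genotype difference between tissues. In each case 0 were called without a block, and the member was NIP2-1. The replicate block also added NIP2-1 to the calls in roots at 5 h, at 11 days and for tpst against Col-0. By a correlation over 0.1 for every pair, same-numbered libraries deviated together in roots between 5 h and 30 min (0.198 to 0.272). Between shoots and roots of the 5 h group they did too (0.109 to 0.305), though unlike numbers reached 0.118 there. They did so in no other comparison. Some others fell short of 0.1, yet had every same-numbered pair above every other pair. In roots against untreated tpst these were 0.077 to 0.142 against at most 0.056 at 30 min, and 0.060 to 0.163 against at most 0.046 at 5 h. The same order held in roots for tpst against Col-0 and in shoots for 5 h against 30 min. It also held between shoots and roots of Col-0 and of the 30 min and 2 h groups. In shoots at 5 h against untreated tpst same-numbered pairs were not above the others (-0.048 to 0.010 against at most 0.074). Whether a number marks more than a label was not settled.

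Leaving out each library in turn, shoots had 0 to 1 members called after 30 min, 1 to 2 after 2 h, 2 to 3 after 5 h and 1 to 3 after 11 days. The ranges in shoots were 0 to 0 for tpst against Col-0, 1 to 3 between the 5 h and 30 min groups and 3 to 4 between the 11-day group and Col-0. In roots the 30 min and 2 h groups had 0 to 0, the 5 h and 11-day groups 2 to 3 each, tpst against Col-0 had 1 to 3, 5 h against 30 min 1 to 2 and 11 days against Col-0 5 to 6. Between the tissues of Col-0 the range was 6 to 6. For the difference in response it was 0 to 0 (30 min), 0 to 2 (2 h), 1 to 3 (5 h) and 1 to 3 (11 days), with 0 to 1 for the genotype difference. Deposited FPKM moved 1 of 60 summed levels beyond the spread of replicates, that of PIP members in untreated tpst shoots (316 against 319.6). Counting motifs on the forward strand only was not run, since no promoter table was used.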
